A study of Mus musculus with 15 samples.

Results

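Mitogen-activated protein (MAP) kinases and the dual-specificity phosphatases that switch them off were described in mouse left ventricle with and without pressure overload. The members were the probe sets, other than array controls, whose single gene symbol in the platform annotation began with Mapk, Map2k, Map3k, Map4k or Dusp. They numbered 61 of 12422 probe sets and stood for 40 of the 8251 genes that single-symbol probe sets named. All 40 symbols were still current in the RefSeq gene table used. A further 2 probe sets were annotated to several genes, with Mapk, Map2k, Map3k, Map4k or Dusp in their symbols, and were left out.

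Total RNA of left ventricle was hybridised to 15 one-colour oligonucleotide arrays. The labels give 3 female and 6 male hearts from sham controls, and 3 female and 3 male hearts from animals that had the TAC operation (in this field, transverse aortic constriction, a band on the aorta that raises the pressure the left ventricle works against). Strain, age, genotype, time after the operation and degree of constriction were not in the labels used here. They also leave unsaid whether every heart came from a separate animal, so p-values measure the spread between these samples only.

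MAP kinase signalling runs through tiers of kinases that phosphorylate each other in turn. MAP4Ks and small GTPases act on MAP3Ks, MAP3Ks activate MAP2Ks, and MAP2Ks phosphorylate a threonine and a tyrosine in the activation loop of the MAP kinases, of which ERK, JNK and p38 are the best-known families. Scaffold proteins hold the tiers together, and MAPK-activated protein kinases are among the substrates. Dual-specificity phosphatases remove both phosphates, and several of them are made in response to the signal they end. In the heart these pathways are known for their part in the response to stretch and to hormones that drive hypertrophy. The signal itself is carried by phosphorylation, which arrays of RNA do not measure.

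Array medians lay between 21.3 and 26.7 intensity units. Values were floored at 20 units, and between 42.4% and 48.4% of an array's probe sets lay below that floor, most on female TAC 1. All 10 cardiomyocyte markers examined were among the probe sets tested, 4 higher and 6 lower with TAC. None was called, and 3 had an unadjusted p under 0.05, all lower: Ryr2, Ckm and Myh6, with -0.52 ± 0.13, -0.41 ± 0.17 and -0.32 ± 0.13 (SE; adjusted p = 0.166, 0.555 and 0.559, limma). The 4 higher were Mybpc3, Actc1, Tnnc1 and Mb, with 0.20 ± 0.10, 0.10 ± 0.09, 0.08 ± 0.11 and 0.08 ± 0.09 (SE). The summed intensity of the 10 was 30143.5 to 35275.1 on the sham and 30332.9 to 36738.4 on the TAC arrays. The operation was visible in its usual markers: Nppa, Acta1 and Ankrd1 were higher with TAC by 2.83 ± 0.22, 2.11 ± 0.14 and 1.10 ± 0.11 on the log2 scale (SE; adjusted p = 1.29e-06, 3.55e-07 and 4.48e-05, limma). Of 8 fibroblast markers 6 were higher and 2 lower, none called (smallest adjusted p = 0.0585, Lum), with 5 at an unadjusted p under 0.05, all higher. Their summed intensity was 1231 to 1672 on the sham and 1660 to 2549 on the TAC arrays. The part of these shifts in the members' values was not tested. In RNA from whole tissue, fewer cells of a type and less RNA per cell cannot be told apart.

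Of the 61 member probe sets, 31 were bright enough to be tested, and they covered 26 of the 40 genes. The filter kept the brightest 60% of all probe sets, by mean log2 value over the 15 arrays. Of the tested members 21 were above the floor on all 15 arrays, and 10 were below it on at least 1. The other 30 stayed low: 21 of them were below the floor on every array, and 9 exceeded it on 1 or more arrays. Among those 30 probe sets the highest single value was 35.6 units.

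**Figure D1:**
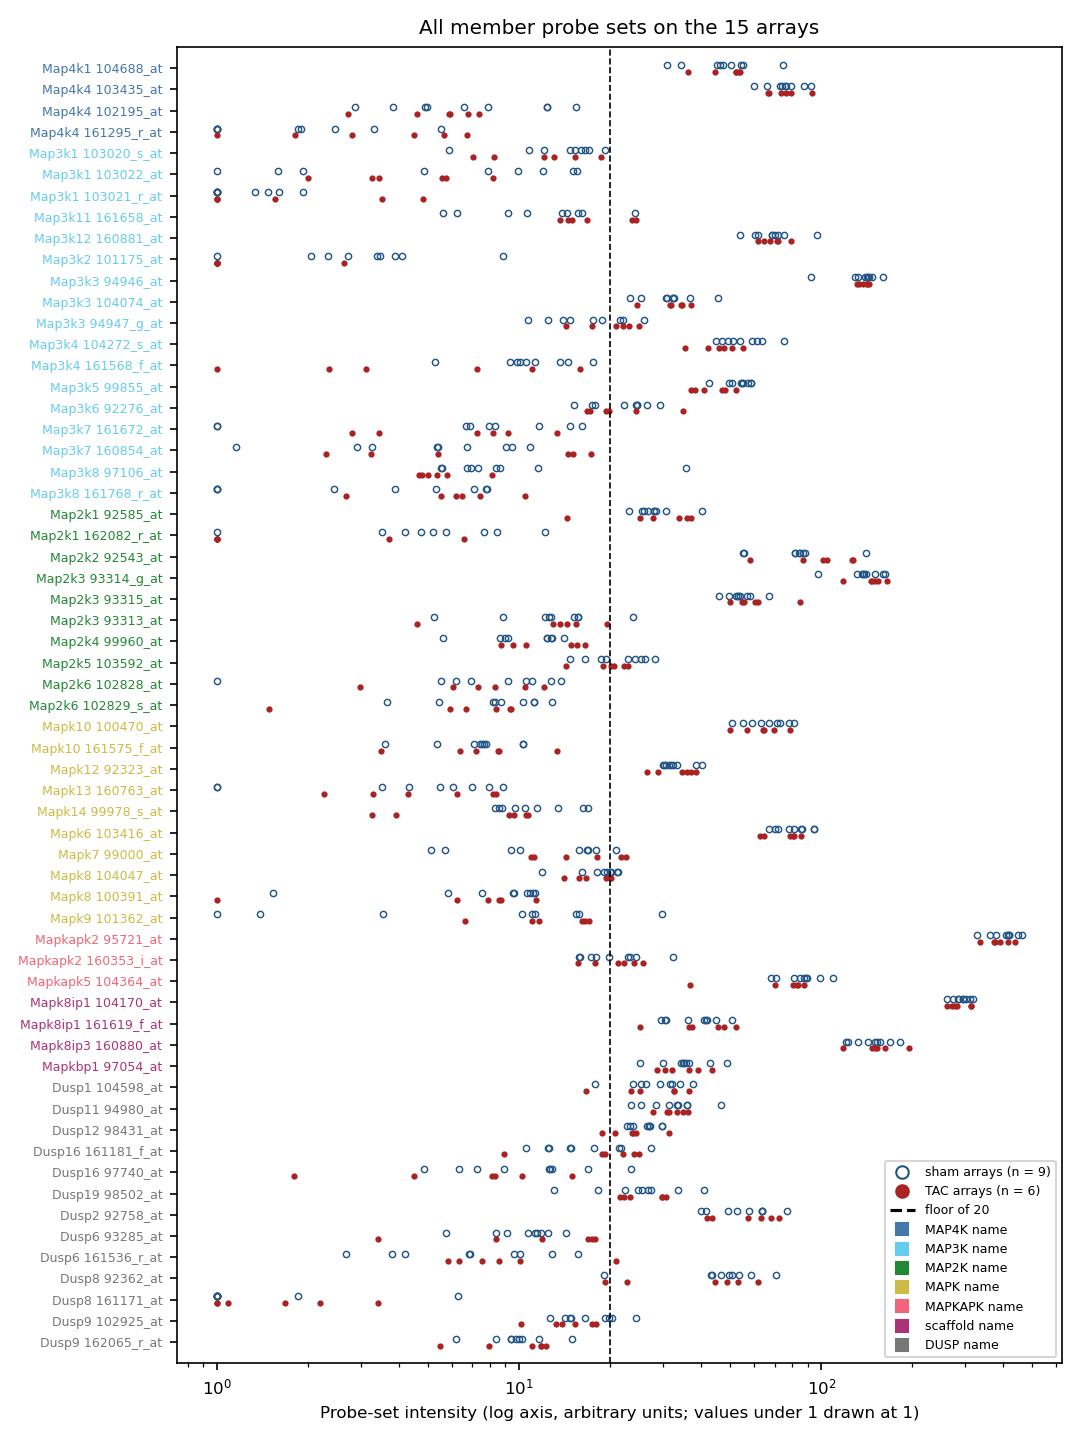
Intensity of each of the 61 member probe sets (rows, coloured by tier) on a log axis in arbitrary units, with open circles for the 9 sham arrays, filled circles for the 6 TAC arrays and a dashed line at the floor of 20. Sham and TAC points overlap in every tested row, and 30 rows lie mostly left of the floor and were not tested. Levels of different probe sets cannot be compared with each other.

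The dim members included several of the best-known kinases of the pathway. Mapk14, the p38 alpha kinase, ranged from 3.26 to 16.9 units over the 15 arrays. Mapk9, the JNK2 gene, had a median of 11.2 and exceeded the floor on 1 sham array, at 29.7. The brighter of the Mapk8 (JNK1) probe sets lay at the floor itself, from 11.9 to 21.2, with 4 sham and 1 TAC array above it. Mapk7, the ERK5 kinase, exceeded it on 1 sham and 2 TAC arrays, with a highest value of 22.5. Among the activating kinases, neither probe set of Map2k6 (a p38 activator), the probe set of Map2k4 (a JNK activator), nor any of those of Map3k1 and Map3k7 (the kinases MEKK1 and TAK1) reached 20 on any array. Of the phosphatases, the brighter probe set of Dusp6, which acts on ERK in the cytoplasm, ranged from 3.41 to 17.9, and its other probe set exceeded the floor on 1 array, female TAC 3, at 20.9. A change in these genes could not be measured at these intensities. Mapk3, Mapk11, Map2k7, Dusp3, Dusp4, Dusp10 and Dusp14 were not analysed here.

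The comparison of all TAC with all sham arrays asked whether pressure overload changed the RNA levels of these kinases and phosphatases. No tested member passed the test. The TAC effect was taken within each sex and averaged, in a model fitted to all 7453 tested probe sets, and limma called 0 of 31 members at an adjusted p under 0.05, against 0.322% of all tested probe sets. At an unadjusted p under 0.05 there was 1 member of 31, Map3k5, or 3.23%, against 7.51% of all tested probe sets. It was lower with TAC, as were 4.66% of all tested probe sets at that threshold. Of the members 17 were higher and 14 lower with TAC, with a median log2 change of 0.0008, where the median of all tested probe sets was -0.03. The smallest adjusted p among the members was 0.516. For none of the 31 did the 6 TAC values lie wholly above or below the 9 sham values, against 0.416% of all tested probe sets.

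The 95% interval of the change lay within 2-fold in either direction for all 31 tested members, and within 1.5-fold for 29 of them. Of all 7453 tested probe sets, 7365 had an interval within 2-fold and 6471 within 1.5-fold. Without male TAC 6 the count of members within 2-fold was 30. The members beyond 1.5-fold were Dusp8, whose interval reached 1.81-fold lower with TAC, and Mapkapk5, which reached 1.54-fold lower. These intervals are for each probe set on its own, on floored values, and for the 10 partly dim probe sets the size of a change, and for some its sign, moved with the floor.

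**Figure D2:**
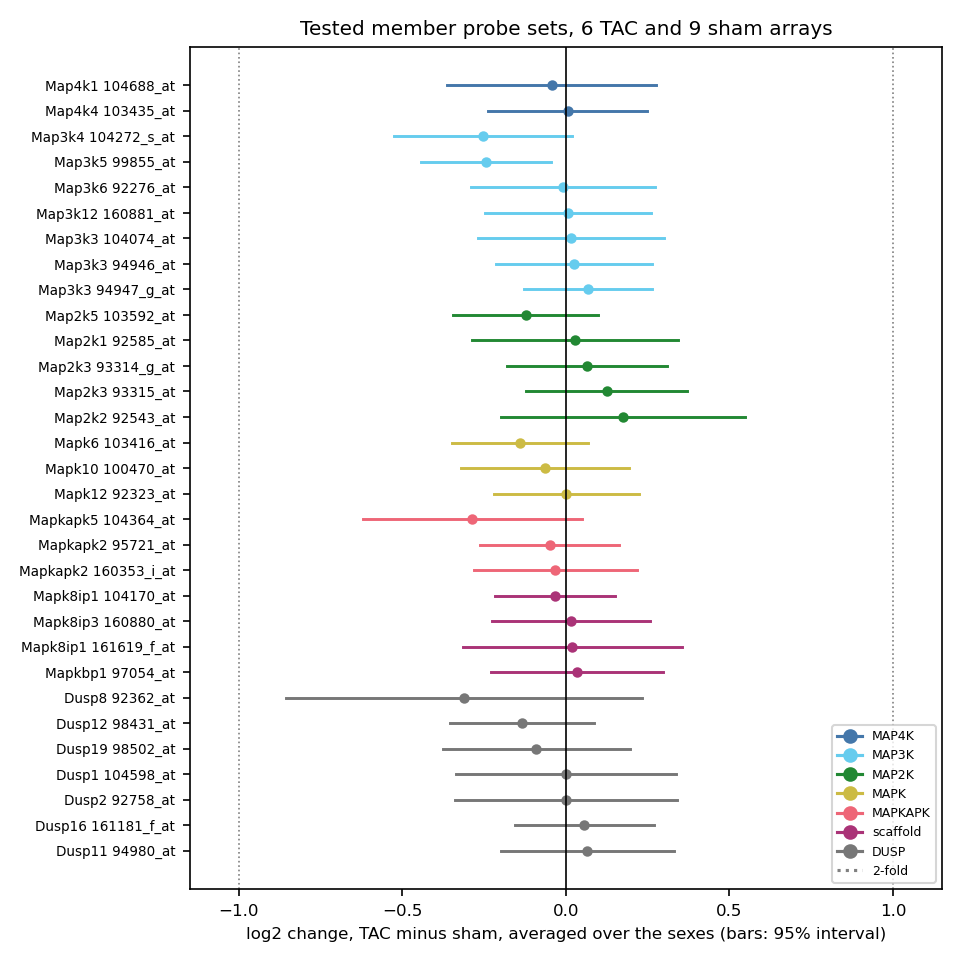
Log2 change with TAC averaged over the sexes for the 31 tested member probe sets, grouped by tier, with 95% intervals as bars and dotted lines at 2-fold. All bars lie between the dotted lines, and only that of Map3k5 does not cross 0 (unadjusted p = 0.0191, adjusted p = 0.516).

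MAP4Ks stand at the top of the cascade, and 2 of their 4 probe sets were tested. Map4k4, a kinase upstream of JNK found in many tissues, had 59.7, 79.2 and 87.5 units in female sham hearts and a lowest, median and highest value of 65.9, 74.8 and 92.3 in male sham hearts. In TAC hearts the values were 73.5, 93.2 and 66.5 in females and 76.1, 79.3 and 66.9 in males. The groups overlapped over almost their whole range, and the log2 change was 0.01 ± 0.12 (SE; adjusted p = 0.995, limma). Map4k1, known from blood cells, averaged 48.6 ± 12.7 units (SD, n = 9) in sham and 48.6 ± 6.99 (SD, n = 6) in TAC hearts. Of 8 leukocyte markers 5 were tested, 1 higher and 4 lower, none called. Their summed intensity was 355 to 563 on the sham and 328 to 420 on the TAC arrays, and their part in the level of Map4k1 was not tested.

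Among the MAP3Ks, Map3k5 and Map3k4 stood nearest to a difference. Map3k5 encodes ASK1, a kinase activated by oxidative stress that feeds JNK and p38. Its values were 50.7, 49.3 and 42.4 in female sham hearts, and in male sham hearts the lowest, median and highest were 54.4, 56.2 and 58.6. With TAC they were 52.3, 40.9 and 47.1 in females and 38.3, 48.1 and 37.1 in males. The male TAC values all lay below the male sham values, while female TAC and female sham values were mixed. The averaged log2 change was -0.24 ± 0.09 (SE), a ratio of TAC to sham of 0.844 with a 95% interval from 0.735 to 0.969, and it was not called (unadjusted p = 0.0191, adjusted p = 0.516, limma). The unadjusted p was 0.121 with median centring, 0.0817 with quantile normalization and 0.0567 with replicates as a block.

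Map3k4, or MEKK4, is a kinase of the JNK and p38 branches that binds the stress proteins of the Gadd45 family. Its brighter probe set had 48.9, 46.8 and 61.1 units in female sham and 44.8, 56.3 and 75.4 as lowest, median and highest value in male sham hearts. After TAC the values were 42.3, 55.2 and 47.7 in females and 45.8, 35.4 and 50.5 in males. The TAC values ran from below the sham range up to 55.2, past the sham median of 53.7, and overlapped the sham values in both sexes. The averaged log2 change was -0.25 ± 0.13 (SE; adjusted p = 0.701, limma).

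The other tested MAP3Ks had changes near 0 on values floored at 20. Map3k3, or MEKK3, which activates the ERK5 branch, had 3 tested probe sets that gave log2 changes of 0.03 ± 0.11, 0.02 ± 0.13 and 0.07 ± 0.09 (SE). The 0.07 is from a probe set below the floor on 8 of 15 arrays, and it became 0.35 with a floor at 10 (unadjusted p = 0.0584) and 0.16 with 20 added to each value and no floor. The brightest probe set of the gene averaged 137 ± 18.8 (SD, n = 9) in sham and 138 ± 5.24 (SD, n = 6) in TAC hearts. Map3k12, a leucine zipper kinase of the JNK branch, had a change of 0.01 ± 0.12, and Map3k6, a relative of Map3k5, one of -0.01 ± 0.13 (SE). Map3k6 was below the floor on 7 of the 15 arrays. The adjusted p of these probe sets was between 0.911 and 0.994 in limma.

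**Figure D3:**
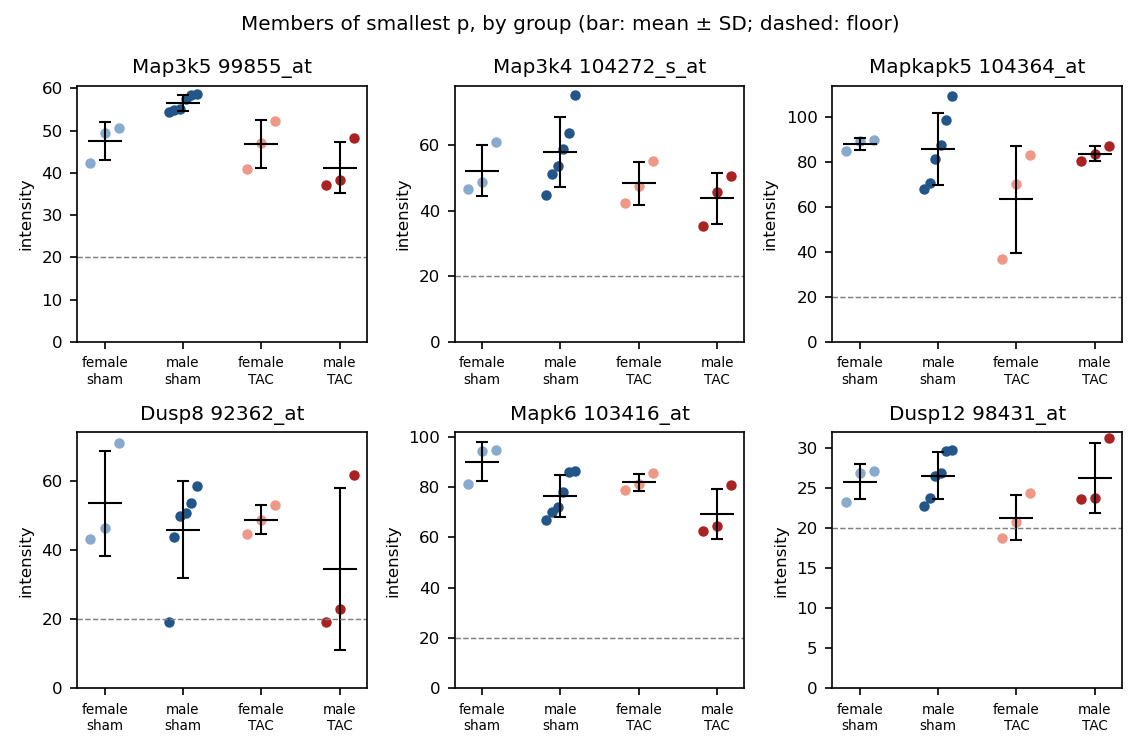
Intensities of the 6 member probe sets of smallest p in the averaged comparison, in arbitrary units from 0, with a point for each array of the 4 groups, a bar for the mean ± SD and a dashed line at the floor of 20. The male TAC points of Map3k5 (37.1 to 48.1) lie below the male sham points (54.4 to 58.6), female TAC 1 lies apart in Mapkapk5 at 36.8, and Dusp8 has 3 low male arrays, 1 sham and 2 TAC.

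MAP2Ks are the dual-specificity kinases that act directly on MAP kinases. Map2k2, or MEK2, which activates ERK, had 86.8, 140 and 88.6 units in female sham and 55.0, 81.7 and 85.0 as lowest, median and highest value in male sham hearts. The TAC hearts had 101, 127 and 104 in females and 87.2, 58.1 and 127 in males. Sham and TAC values overlapped, and the log2 change was 0.18 ± 0.18 (SE; adjusted p = 0.877, limma). Without male TAC 6 it was 0.04 and without male TAC 5 it was 0.32. Its partner Map2k1, or MEK1, averaged 28.5 ± 4.97 (SD, n = 9) in sham and 29.0 ± 8.49 (SD, n = 6) in TAC hearts.

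Map2k3, which activates p38, had 2 tested probe sets that were higher with TAC by 0.13 ± 0.12 and 0.06 ± 0.12 on the log2 scale (SE; adjusted p = 0.864 and 0.934, limma). The brighter of them averaged 139 ± 19.1 (SD, n = 9) in sham and 147 ± 15.6 (SD, n = 6) in TAC hearts. Map2k5, the activator of ERK5, had a change of -0.12 ± 0.11 (SE; adjusted p = 0.852) and was below the floor on 6 of 15 arrays. In this tier 4 of 5 tested probe sets had a log2 change above 0, and the median change was 0.06.

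Of the MAP kinases themselves, 3 of 10 probe sets were bright enough to test. Mapk6, the atypical kinase ERK3, had 81.1, 94.4 and 94.7 units in female sham and 66.9, 75.0 and 86.5 as lowest, median and highest value in male sham hearts. TAC hearts gave 79.0, 81.2 and 85.5 in females and 64.4, 62.6 and 80.8 in males. The groups overlapped within each sex, and the log2 change was -0.14 ± 0.10 (SE; adjusted p = 0.808, limma). Mapk10, the JNK3 gene best known from brain and heart, ranged from 50.7 to 81.1 in sham and from 49.8 to 78.6 in TAC hearts, with a change of -0.06 ± 0.12 (SE; adjusted p = 0.936, limma). Mapk12, p38 gamma, the p38 kinase of striated muscle, averaged 33.1 ± 3.71 (SD, n = 9) and 33.6 ± 4.80 (SD, n = 6). Its log2 change was 0.002 ± 0.10 (SE), with a 95% interval from 0.859-fold to 1.17-fold.

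Mapkapk2 and Mapkapk5 are protein kinases that p38 phosphorylates. The brighter Mapkapk2 probe set had 414, 448 and 327 units in female sham and 362, 414 and 461 as lowest, median and highest value in male sham hearts. In TAC hearts the values were 374, 389 and 414 in females and 376, 336 and 437 in males, within the sham range throughout. Its log2 change was -0.05 ± 0.10 (SE; adjusted p = 0.939, limma).

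Mapkapk5 had 89.2, 84.8 and 89.8 units in female sham and 68.0, 84.4 and 109 as lowest, median and highest value in male sham hearts. After TAC the values were 36.8, 83.2 and 70.2 in females and 87.3, 80.4 and 83.6 in males. All 3 female TAC values lay below the female sham values, and 1 of them, female TAC 1, was far below every other array. The averaged change was -0.29 ± 0.16 (SE; adjusted p = 0.740, limma), and without female TAC 1 it was -0.11. Female TAC 1 had the lowest array median, 21.3 units, and was the lowest of the 15 arrays for 6 of the 31 tested members, more than any other array.

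Scaffold proteins of the JNK branch bind its kinases side by side, and 4 probe sets for 3 of them were tested. Mapk8ip1, or JIP1, had 310, 283 and 294 units in female sham and 261, 289 and 319 as lowest, median and highest value in male sham hearts. With TAC it had 282, 270 and 314 in females and 260, 312 and 278 in males. The groups covered nearly the same range, with a log2 change of -0.03 ± 0.09 (SE), and the dimmer probe set of the gene gave 0.02 ± 0.16. Mapk8ip3, or JIP3, averaged 148 ± 20.4 (SD, n = 9) in sham and 154 ± 24.8 (SD, n = 6) in TAC hearts. Mapkbp1, which binds JNK, averaged 35.8 ± 6.76 (SD, n = 9) and 35.0 ± 5.69 (SD, n = 6). The adjusted p of the 4 scaffold probe sets was between 0.958 and 0.989 in limma.

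Dual-specificity phosphatases close the pathway. Dusp1, or MKP-1, is a nuclear phosphatase of p38, JNK and ERK and is itself an immediate early gene, transcribed within minutes of a stimulus. The 250 bases before its RefSeq start on GRCm38.p6, chr17:26508473-26508722 on the minus strand, are shown because Dusp1 was set against immediate early genes on these arrays. Capitals mark matches to the core of the cyclic AMP response element, TGACGT, searched on both strands (ACGTCA on the other). The match nearer to the start is the palindrome TGACGTCA, in which matches on both strands overlap.
Dusp1: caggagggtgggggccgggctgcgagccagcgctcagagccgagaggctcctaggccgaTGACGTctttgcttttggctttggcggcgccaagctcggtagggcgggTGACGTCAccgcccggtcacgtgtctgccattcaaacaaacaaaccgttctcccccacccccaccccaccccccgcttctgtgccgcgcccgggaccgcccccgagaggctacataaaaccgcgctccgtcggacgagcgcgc
The core was found in 6.47% of 32851 RefSeq promoters of the same length, and in 8 of 44 promoters of the 34 member genes that the table held. A match is a run of letters and not a measured binding site.

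Dusp1 had 34.1, 25.2 and 17.9 units in female sham and 23.8, 30.4 and 37.7 as lowest, median and highest value in male sham hearts. With TAC it had 16.7, 32.4 and 32.5 in females and 25.1, 23.5 and 36.5 in males. Values ranged over about the same span with and without TAC, and the log2 change was 0.0005 ± 0.16 (SE; adjusted p = 0.999, limma). Of 16 immediate early genes 12 were tested, 6 of them higher and 6 lower with TAC, none at an unadjusted p under 0.05. A score of 6 tested immediate early genes (Fosb, Jun, Junb, Egr1, Ier2 and Atf3, mean log2 value) was set against Dusp1 over the 9 sham arrays. Over these arrays the Pearson r was 0.149 (exact permutation p = 0.704, two-sided) and the Spearman rho was 0.283 (exact permutation p = 0.463). Without the 2 arrays farthest from the median score r was 0.171 (exact permutation p = 0.691), and within the 6 male sham arrays it was -0.287 (exact permutation p = 0.599). Over the 6 TAC arrays, added after seeing the data, r was 0.806 (exact permutation p = 0.0833) and rho was 0.486 (exact permutation p = 0.356). Without the 2 arrays farthest from their median score, male TAC 4 and female TAC 1, r was 0.612 and rho was 0 over the remaining 4. Of the 6 relations computed none passed, with a smallest Benjamini-Hochberg adjusted p of 0.500 for r and 0.694 for rho (exact permutation). Whether the relation differed between sham and TAC arrays was not tested.

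Dusp8, which acts on JNK and p38 and is known from brain, heart and skeletal muscle, had the widest span of the tested members among the sham hearts. It had 43.1, 46.4 and 70.9 units in female sham and 19.1, 50.1 and 58.4 as lowest, median and highest value in male sham hearts. With TAC it had 48.7, 44.4 and 53.0 in females and 22.8, 19.2 and 61.5 in males. The 3 lowest arrays were male sham 7, male TAC 5 and male TAC 4, so low values occurred with and without TAC. The averaged change was -0.31 ± 0.26 (SE; adjusted p = 0.843, limma). It was -0.57 without male TAC 6 and -0.16 without male TAC 5.

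None of the remaining phosphatases was called. Dusp2, a nuclear phosphatase best known from immune cells, had 63.5, 63.5 and 52.6 units in female sham hearts and a male sham median of 53.4, and its TAC values ran from 41.7 to 72.6, within the sham range. Dusp12, an atypical member, averaged 26.3 ± 2.58 (SD, n = 9) and 23.8 ± 4.26 (SD, n = 6), with a log2 change of -0.13 ± 0.10 (SE; adjusted p = 0.828, limma). Dusp11, which acts on RNA rather than on kinases, had a change of 0.07 ± 0.13, Dusp19, linked to the JNK branch, one of -0.09 ± 0.14, and Dusp16, a JNK phosphatase, one of 0.06 ± 0.10 (SE). The brighter probe set of Dusp16 was below the floor on 9 of 15 arrays, so its change rests on few values. Of the 7 tested phosphatase probe sets 4 were higher and 3 lower, with a median change of 0.0005.

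Taken within each sex, no member passed either. In females limma called 0 of 31, against 0.0805% of all tested probe sets, and 1 member, Mapkapk5, had an unadjusted p under 0.05, against 4.59% of all (2.98% with TAC lower). Its female change was -0.55 ± 0.24 (SE; adjusted p = 1.00), which was -0.20 without female TAC 1. Mapkapk5 was also the 1 member of 31 whose female TAC and female sham values did not overlap, against 8.51% of all tested probe sets (5.49% with TAC lower). In males limma called 0 of 31, against 0.134%, and 2 members had an unadjusted p under 0.05, against 6.2% of all (3.22% with TAC lower). These were Map3k5, with -0.46 ± 0.12 (SE; adjusted p = 0.307), and Map3k4, with -0.40 ± 0.17 (SE; adjusted p = 0.723). Map3k5 was the 1 member whose male TAC and male sham values did not overlap, against 2.97% of all tested probe sets (1.34% with TAC lower).

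Whether TAC acted unequally in females and males was tested as an interaction, and limma called 0 of 31 members, as it called 0% of all 7453 probe sets. At an unadjusted p under 0.05 there was 1 member, against 2.56% of all. That member was Map3k5, with a female change of -0.03 ± 0.14 and a male change of -0.46 ± 0.12, a difference of 0.44 ± 0.19 (SE, female minus male; adjusted p = 1.00). Next came Dusp19, with -0.37 ± 0.20 in females and 0.19 ± 0.18 in males, and Mapkbp1, with 0.26 ± 0.19 and -0.19 ± 0.16 (SE; adjusted p = 1.00 for both differences). The 95% interval of the difference lay within 2-fold for 26 of the 31 members, and reached beyond it for the other 5. It lay within 2-fold for 6129 of all 7453 tested probe sets.

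**Figure D4:**
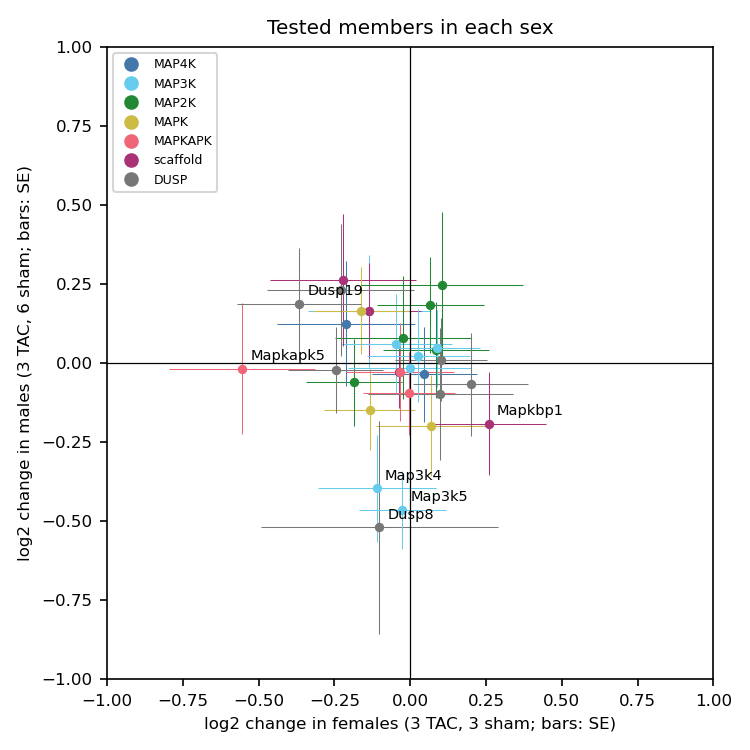
Log2 change with TAC in females (x axis, 3 TAC and 3 sham arrays) against that in males (y axis, 3 TAC and 6 sham arrays) for the 31 tested member probe sets, coloured by tier, with SE bars. Female changes run from -0.55 to 0.26 and male changes from -0.52 to 0.26. Map3k5, Map3k4 and Dusp8 lie low on the male axis (-0.46, -0.40 and -0.52) and Mapkapk5 lies low on the female axis (-0.55).

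Lists of genes around the cascade, none of which is a member, also held no called gene. Of 18 genes of the Ras, Raf and adaptor input to ERK 8 were tested. With TAC 2 of these were higher and 6 lower, none called. Ksr1, a scaffold that holds Raf, MEK and ERK together, had -0.47 ± 0.16 (SE; unadjusted p = 0.00862, adjusted p = 0.407, limma), and Rras, a small GTPase, had 0.31 ± 0.16 (SE; adjusted p = 0.691). Of 17 inputs to the stress branches 10 were tested, 5 higher and 5 lower, none called, and Gadd45a, a stress-induced activator of Map3k4, had 0.34 ± 0.19 (SE; adjusted p = 0.740). Its relatives Gadd45b and Gadd45g had 0.02 ± 0.11 and -0.01 ± 0.13 (SE). Feedback inhibitors and other phosphatases of the pathway had 8 tested genes of 15, 3 higher and 5 lower, none called, with a smallest adjusted p of 0.697 for the phosphatase subunit Ppp2ca. Of 9 downstream kinases only Mknk1 and Mknk2, which act on translation, were tested, with 0.01 ± 0.11 and 0.22 ± 0.12 (SE). Among 18 target transcription factors 12 were tested, 5 higher and 7 lower, none called. Mef2a and Mef2c, myocyte factors phosphorylated by p38 and ERK5, had -0.42 ± 0.17 and -0.50 ± 0.27 (SE; adjusted p = 0.553 and 0.740, limma). Mef2d, of the same family, had 0.06 ± 0.16 (SE; adjusted p = 0.957, limma).

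The members differed in how much their intensities, before the floor was applied, varied among the 9 sham hearts. The coefficient of variation was 6.16% for the brighter Mapk8ip1 probe set, 9.76% for Map3k5 and 10.4% for the brighter Mapkapk2 probe set. It was 28.8% for Dusp8, 29.3% for Map2k2, 31.2% for Dusp19 and 32.1% for Dusp16, which was below the floor on 6 of these 9 arrays. The widest span was that of Dusp8, whose highest sham value was 3.71 times its lowest, and the narrowest that of Mapk8ip1, with 1.22 times. For Dusp8 the low end was 1 array, male sham 7, at 19.1 units and below the floor. Its other sham values were 43.1 to 70.9. On simulated data with 200 of 7453 probe sets changed, the averaged comparison recovered 47% of changes of 0.5 and 91% of changes of 1 on the log2 scale, with 7 false calls. The simulation had no floor and no correlation between genes. In the data the averaged comparison called 24 of 7453 probe sets, and recovery with fewer than 200 changed was not tested. Recovery of a change in the members themselves was not tested either.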

How the data were processed

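The authors deposited 1 table of probe-set intensities on a linear scale, in arbitrary units, for 15 arrays. Software, background correction and scaling were not given in the sources used here. Of 12488 probe sets 66 controls were left out. Values were floored at 20 and log2 was taken. The 60% with the highest mean were tested, 7453 in all. Symbols came from the platform annotation, updated by gene number through RefSeq (GRCm38.p6, 10817 of 10833 single-symbol probe sets matched). A limma 3.58.1 model (R 4.3.3, lmFit and eBayes) had a mean for each of the 4 groups of sex and operation. Contrasts gave the TAC effect in each sex, the mean of both and their difference. Benjamini-Hochberg adjustment ran over all tested probe sets, with calls at 0.05.

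The members and lists were chosen with earlier results of these data known. Members given with values were those called, the 12 of smallest p in the averaged effect, the 3 of smallest p in the difference, a list of best-known members (brightest probe set each) and the 3 brightest. Others are given by range, mean or count. The alternatives were other scalings, floors, filters, eBayes settings, array weights, 2-group and additive models, the replicate number as a block and leaving out each array. Same-numbered sham and TAC arrays had correlated deviations of 0.244, 0.270 and 0.117 in females and of 0.0641, -0.0828 and 0.0136 in males, so a block in females alone was added after seeing the data. The fit was tested on simulated data. No array dates were used, so no batch was examined. Promoters were RefSeq's. The number of arrays limits the precision.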

Additional observations from a re-analysis of the deposited data

Results flagged for a closer look

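In the 6 male sham hearts, the highest value of 4 member probe sets lay apart from the other 5 by more than the 95% limit of Dixon's test, among 61 probe sets examined. Chance alone gives about 1 in 20, so a few are to be expected among 61. Mapk12 had 40.2 units in male sham 5, while the other male sham values were 29.99 to 32.2. Map3k8, which encodes the kinase Tpl2, had 35.6 in the same heart against 6.73 to 11.5 in the others, and this was the only array on which it exceeded the floor of 20. Map3k2 had 8.85 in male sham 7 against 2.32 to 4.10. A dim Dusp8 probe set also passed the limit, with 6.28 in male sham 9 and 0 listed in the others. With the other 5 at 0 any value above 0 passes, so this says nothing of an outlying level. Map3k2 and this Dusp8 probe set were below the floor in all male sham hearts, and neither they nor Map3k8 were among the probe sets tested.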

How the results depend on the processing

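No member was called under any setting run. The count was 0 in the averaged comparison under 26 alternatives, 0 in females under 17, 0 in males under 19 and 0 for the difference between the sexes under 24, runs without 1 array included. The smallest adjusted p in limma was 0.271, 0.319, 0.224 and 0.640. At an unadjusted p under 0.05 there were 0 to 3, 0 to 2, 1 to 4 and 0 to 6 members. With the replicate number as a block the count was 0 in each comparison, also with the block in females alone. Probe sets that passed in no setting were counted as keeping their result, although near-zero changes switched sign: Dusp1 did so in 13 of 25 alternatives and Mapk12 in 10 of 25. Map3k5 ranged from -0.30 to -0.17 and Map3k4 from -0.31 to -0.18. The averaged p of Map3k5 ranged from 0.00530 to 0.121, and its difference between the sexes had an unadjusted p under 0.05 in 17 of 24. In males it had an unadjusted p under 0.05 in all 19 alternatives, with an adjusted p from 0.224 to 0.639. The background moved more: over all probe sets limma called 24 in the averaged comparison, 8 with the block and 68 with array weights, 0 to 36 against 6 in females and 3 to 19 against 10 in males. The r of Dusp1 with the immediate early score was 0.173 with an offset of 20 and no floor. The 30 dim members were not measurable at this floor.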
